A study of Mus musculus with 4 samples.

Results

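The leptin receptor gene Lepr and 8 genes for proteins secreted by the liver were taken by symbol from the 24346 genes of a liver RNA sequencing experiment in leptin-deficient mice. The 8 were Fgf21, Gdf15, Ahsg, Fetub, Inhbe, Angptl4, Angptl6 and Lect2, and all 9 genes were above 0 in every library. Livers came from male ob/ob mice, which carry a mutation of the leptin gene and are obese, and the study asked how dietary 7-ketocholesterol (7KC), a cholesterol oxidation product found in food, changes the fatty liver of obese mice. The 4 groups had 1 library each: CD was a regular chow with corn oil, CD+7KC was the same chow with 0.01% 7KC, WD was a high fat diet with cocoa butter, and WD+7KC was that diet with 0.01% 7KC. Feeding began at 6 weeks of age and lasted 4 weeks, and cholesterol made up 1% of the food in every group, so that the CD mice were cholesterol-fed too. WD also held more sucrose and less casein than CD, so that fat, sugar and protein cannot be told apart in a comparison of the diets, and there was no lean mouse or mouse with leptin among the libraries. Whether a library came from 1 mouse or a pool is not given in the sources used here.

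Hepatokines are proteins that hepatocytes release into the blood and that act on other organs. FGF21 lowers glucose and lipids through a fibroblast growth factor receptor paired with the co-receptor beta-Klotho, and GDF15 reduces food intake through the receptor GFRAL in the hindbrain. Fetuin-A and fetuin-B, the products of Ahsg and Fetub, are abundant plasma proteins of the cystatin family, and fetuin-A can inhibit the insulin receptor. Inhbe encodes the beta E subunit of inhibin and activin, which forms the homodimer activin E. Angptl4 inhibits lipoprotein lipase, Angptl6 is also called angiopoietin-related growth factor, and Lect2 is a chemotactic factor of the liver. Lepr encodes a cytokine receptor whose long form signals through JAK2 and STAT3 and whose shorter or soluble forms bind leptin without the full signal.

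Levels are given in FPKM, a read number scaled by exon length and by the mapped reads of the library, so that levels of different genes can be compared per length. Where 4 values follow each other without group names, their order is CD, CD+7KC, WD, WD+7KC. There were no replicates, so differences could not be checked against the spread between mice and p-values are left out. Intervals in parentheses after a ratio are exact (Clopper-Pearson) 95% intervals that cover counting error only, computed from read numbers estimated from the FPKM values. A difference given as log2 is the log2 ratio after 0.1 was added to each FPKM, a scale on which changes of low genes come out too small, and a gene was counted as past the threshold above 1 or below -1, a 2-fold difference.

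Fgf21 and Inhbe are known targets of the stress transcription factor ATF4, which binds C/EBP-ATF response elements, and their promoters are shown first for that reason. The 8 letters TTGCATCA form the core of such an element. They were searched on both strands in the 250 bases before each RefSeq transcription start (GRCm38.p6) and stand in capitals below, 5′ to 3′ on the strand of the gene. Fgf21 and Inhbe held the core and the other members with a promoter entry (8 of 9, without Angptl4) did not, and Gdf15 is shown beside them because its level varied most.
Fgf21, chr7:45615491-45615740, minus strand: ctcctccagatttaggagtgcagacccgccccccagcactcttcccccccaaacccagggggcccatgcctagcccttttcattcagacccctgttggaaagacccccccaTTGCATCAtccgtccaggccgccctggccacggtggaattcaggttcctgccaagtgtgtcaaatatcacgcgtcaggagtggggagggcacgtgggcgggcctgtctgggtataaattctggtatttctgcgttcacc
Inhbe, chr10:127351849-127352098, minus strand: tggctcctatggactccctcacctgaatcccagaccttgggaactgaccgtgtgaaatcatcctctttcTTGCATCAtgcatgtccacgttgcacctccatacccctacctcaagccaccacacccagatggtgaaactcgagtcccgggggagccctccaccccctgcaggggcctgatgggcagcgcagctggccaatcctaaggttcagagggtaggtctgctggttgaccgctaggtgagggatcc
Gdf15, chr8:70632457-70632706, minus strand, first of 2 start sites: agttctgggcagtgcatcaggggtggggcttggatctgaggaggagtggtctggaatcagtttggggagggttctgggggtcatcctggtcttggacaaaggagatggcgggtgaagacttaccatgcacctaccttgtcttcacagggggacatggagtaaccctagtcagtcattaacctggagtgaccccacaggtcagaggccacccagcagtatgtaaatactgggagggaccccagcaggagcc
The core began 139 bases before the start in Fgf21 and 181 bases before it in Inhbe. Of 32851 promoters of this length, 260 (0.791%) held it. Fgf21 also held an E-box, CACGTG, 50 bases before the start (6.02% of promoters, and also the second start of Gdf15) and TATAAA 28 bases before it (12.4%). AGGTCA, a core bound by nuclear receptors, began 55 bases before the first Gdf15 start (14.0%). No member held the STAT element TTCNNNGAA, which 7.02% of promoters held, and CCAAT was found in Lepr, Gdf15 at its second start, Fetub and Inhbe (33.8%). Fetub also held TATAAA, 31 bases before its first start. These matches describe letters and do not show binding.

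Across the 9 genes the levels covered a wide range. Ahsg was above 99.8% of the detected genes in each library, with 2839 to 3649 FPKM. Fetub, Angptl4 and Lect2 followed at 82.7 to 244 FPKM. Inhbe and Gdf15 lay between 15.3 and 51.1 FPKM, Fgf21 and Angptl6 between 8.70 and 18.4 FPKM, and Lepr between 0.765 and 1.60 FPKM. Estimated reads ran from 26.9 for Lepr in CD to 50537 for Ahsg in WD+7KC, so that counting error was large for Lepr and small for Ahsg.

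**Figure D1:**
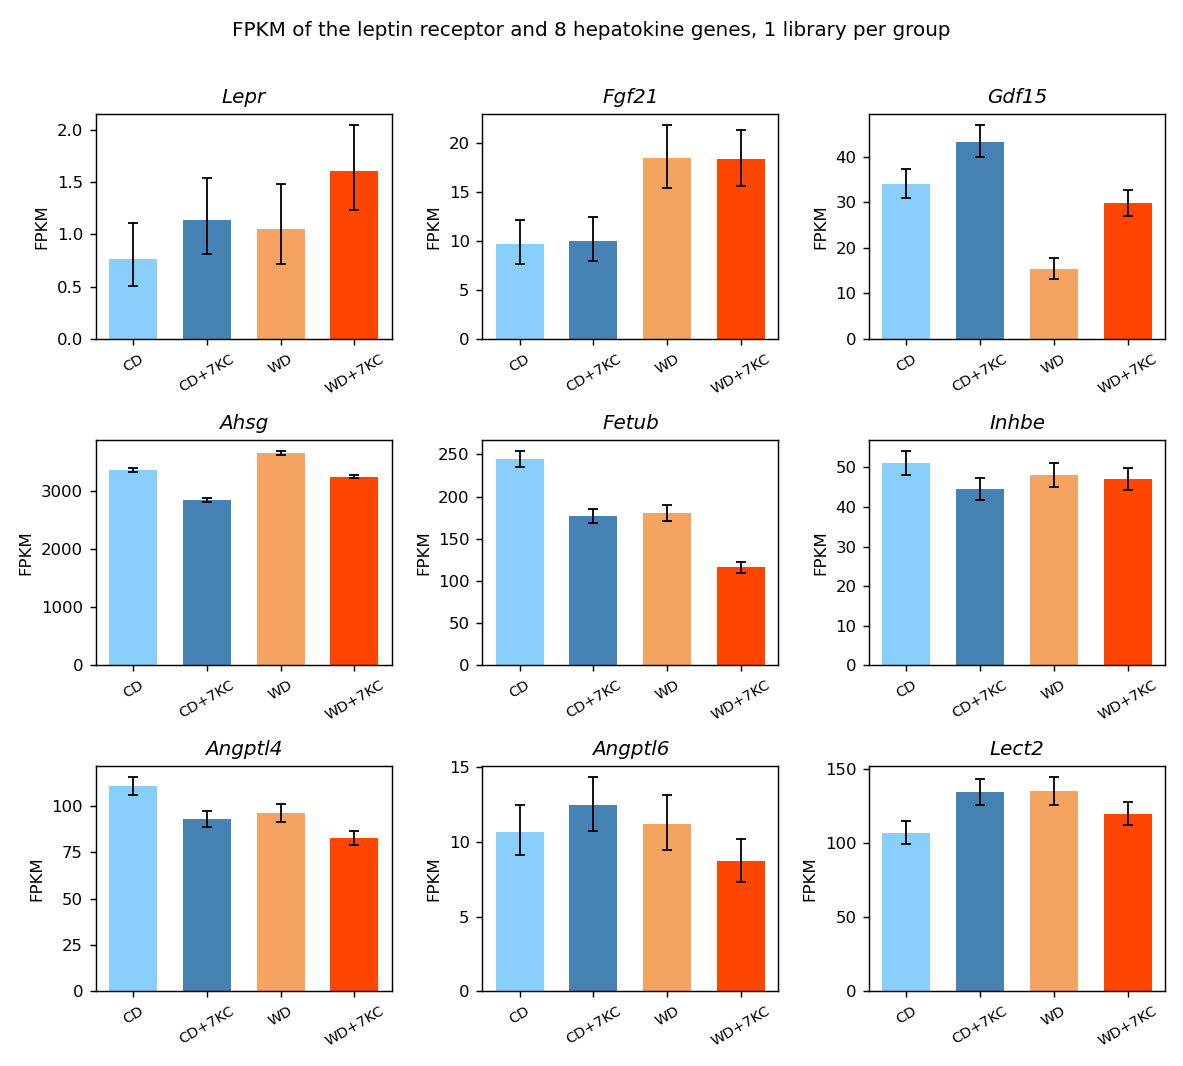
FPKM (vertical axis, from 0, own scale in each panel) of each gene in the 4 libraries (horizontal axis). Each bar is 1 library and each error bar the 95% interval of its counting error. Fgf21 was at 9.68 and 10.02 FPKM in the chow libraries and at 18.4 and 18.3 FPKM in the WD libraries, while Gdf15 was lowest in WD at 15.3 FPKM and Fetub lowest in WD+7KC at 116 FPKM.

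Of the 9 genes, none was past the threshold in WD+7KC relative to WD, where 9.0% of all genes above 0 were past it (4.71% of genes from 1 FPKM). None was past it in CD+7KC relative to CD, where the background was 6.75% (2.65% from 1 FPKM). In WD relative to CD 1 gene, Gdf15, was below -1, against a background of 9.69% (5.54% from 1 FPKM). In WD+7KC relative to CD+7KC none was past the threshold, against 12.6% (9.37% from 1 FPKM). At a lower threshold, a 1.5-fold difference, the counts were 2 (Gdf15 higher, Fetub lower), 0, 2 (Fgf21 higher, Gdf15 lower) and 2 (Fgf21 higher, Fetub lower) of 9. These counts too used the log2 scale with 0.1 added. On it Lepr in WD+7KC relative to WD fell short at 0.57, although its plain FPKM ratio was 1.53. The share of all genes from 1 FPKM past that threshold was 12.6%, 8.36%, 16.8% and 22.3% in the same order. The members' median log2 difference was -0.17, 0.05, 0.07 and -0.17, beside medians of 0.00, -0.00, 0.01 and 0.00 over all genes. The 4 comparisons share libraries with each other and are not independent.

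The FPKM sum was 602059 in WD+7KC and 696062 to 715605 in the other libraries, and rescaling all libraries to equal sums moved the median of all genes to 0.21 in WD+7KC relative to WD and to 0.20 in WD+7KC relative to CD+7KC. With that rescaling 6 of the 9 genes rather than 2 were higher in WD+7KC than in WD. At the 1.5-fold threshold Lepr then took the place of Fetub in both comparisons. In WD+7KC relative to WD the log2 differences with equal sums were 0.77 for Lepr and -0.42 for Fetub. In WD+7KC relative to CD+7KC they were 0.66 and -0.40. Values with equal sums are therefore given beside those deposited values of the 9 genes, and those counts of gene lists in WD+7KC relative to WD, that this rescaling moved across 0 or across the threshold. Counts with equal sums in that comparison stand beside the median of 0.21 over all genes.

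**Figure D2:**
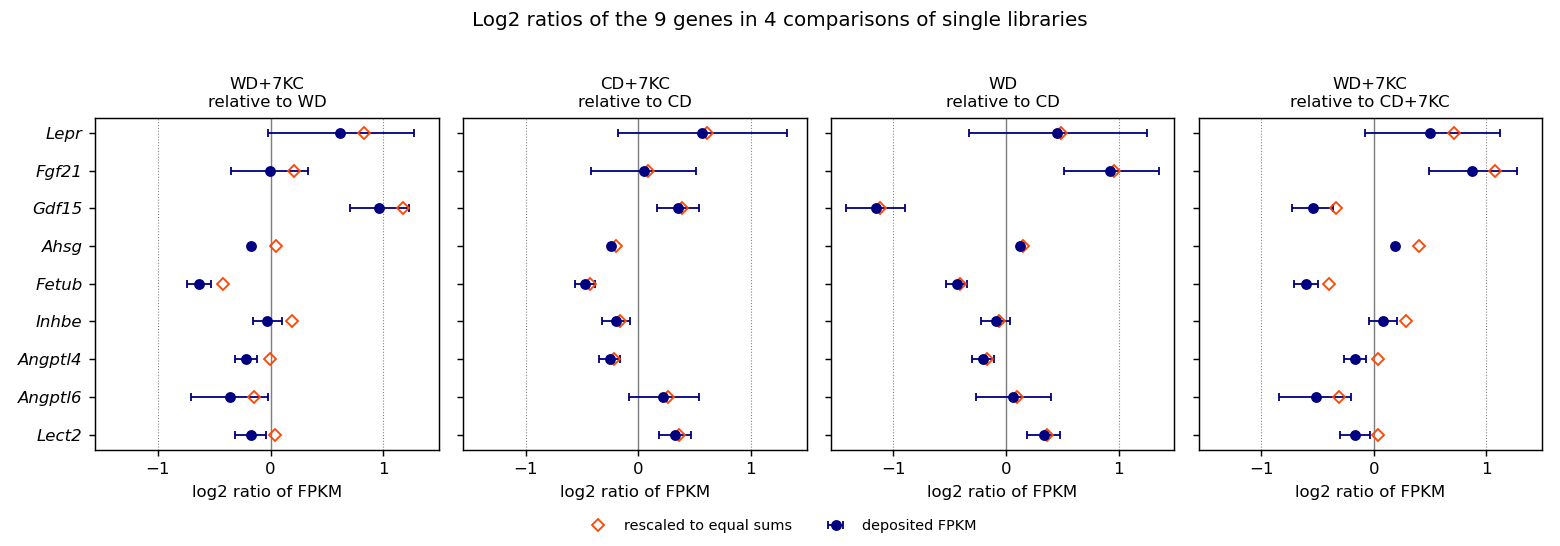
Log2 ratio of FPKM (horizontal axis) of the 9 genes (vertical axis) in 4 comparisons of 2 libraries each. Filled points show the deposited FPKM with 95% intervals of counting error, open diamonds the values after rescaling to equal sums, and dotted lines a 2-fold difference. Gdf15 in WD relative to CD lies past the lower line in both scalings, while Gdf15 in WD+7KC relative to WD and Fgf21 in WD+7KC relative to CD+7KC pass the upper line only after rescaling.

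Lepr was expressed at a low level in all 4 libraries. It was at 0.765 FPKM in CD, 1.05 in WD, 1.13 in CD+7KC and 1.60 in WD+7KC, from an estimated 26.9, 31.8, 40.1 and 62.5 reads. WD+7KC was highest under this order and CD lowest. The ratio of the highest to the lowest was 2.10 (1.32 to 3.44). As deposited, neighbours in the order did not differ beyond counting error: WD over CD was 1.37 (0.798 to 2.39), CD+7KC over WD 1.08 (0.657 to 1.76) and WD+7KC over CD+7KC 1.41 (0.946 to 2.18).
The 7KC libraries were higher than their own diet without 7KC in both diets, but both intervals included 1. The ratio of WD+7KC to WD was 1.53 (0.986 to 2.42) and CD+7KC over CD was 1.48 (0.883 to 2.50). With equal sums the first ratio was 1.78 (1.15 to 2.82), which no longer included 1, and WD+7KC over CD+7KC was 1.63 (1.09 to 2.52). Lepr spans chr4:101717137-101815352 and has 3 RefSeq mRNAs, and the deposited value is 1 per gene, so that long and short receptor forms cannot be told apart.

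Leprot, which encodes a membrane protein that limits the surface level of the leptin receptor, ends 57772 bases before Lepr starts. It was at 12.9 (CD), 12.9 (CD+7KC), 15.0 (WD) and 19.2 (WD+7KC) FPKM. WD+7KC was again highest, at 1.28 (1.09 to 1.52) times WD and 1.49 (1.26 to 1.77) times CD+7KC, while the chow libraries were within counting error of each other. Lepr per Leprot was 0.0592, 0.0880, 0.0700 and 0.0834 in CD, CD+7KC, WD and WD+7KC. The leptin gene itself was listed at 0 in all 4 libraries, as is usual for liver, and gives no check of the ob genotype.

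These were whole livers, in which more cells of a type and more RNA per cell cannot be told apart. Liver endothelial markers were higher in WD+7KC than in WD for 11 of 11 genes, with 10 past the threshold and a median log2 difference of 1.53. Their summed level was 92.3 (CD), 131.7 (CD+7KC), 76.0 (WD) and 208.0 (WD+7KC) FPKM. Macrophage markers were higher in WD+7KC than in WD for 12 of 12 genes, 6 of them past the threshold, and summed to 156.7, 247.4, 263.0 and 523.6 FPKM in the same order. Hepatocyte markers, which define the labelled tissue, were abundant in every library, and 11 of 12 were below their WD level in WD+7KC, with a median of -0.23 and sums between 53112 and 65716 FPKM. With equal sums 6 hepatocyte markers were higher and 6 lower there, with a median of -0.01, while all 11 endothelial and all 12 macrophage markers were higher in that scaling too. Stellate cell markers summed to 199.8, 156.8, 209.6 and 208.4 FPKM, of which Dcn alone held 139, 118, 145 and 137. By gene, 6 were higher and 5 lower in WD+7KC relative to WD (9 and 2 with equal sums). In CD+7KC relative to CD 10 of 11 were lower, with a median of -0.63. All 11 were higher in WD+7KC than in CD+7KC, with a median of 0.73. The part of any of these marker lists in the Lepr values was not tested. Lepr per 1000 FPKM of endothelial markers was 8.28 (CD), 8.60 (CD+7KC), 13.8 (WD) and 7.70 (WD+7KC), a ratio chosen after the values were seen, and WD+7KC was the lowest library on this scale. Per 1000 FPKM of hepatocyte markers it was 0.0123, 0.0210, 0.0159 and 0.0302, with WD+7KC the highest. Alb alone held 30014 of the 53112 FPKM of the hepatocyte sum in WD+7KC. Ratios to this sum, here and below, therefore rest mainly on abundant transcripts and are not levels per hepatocyte.

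**Figure D3:**
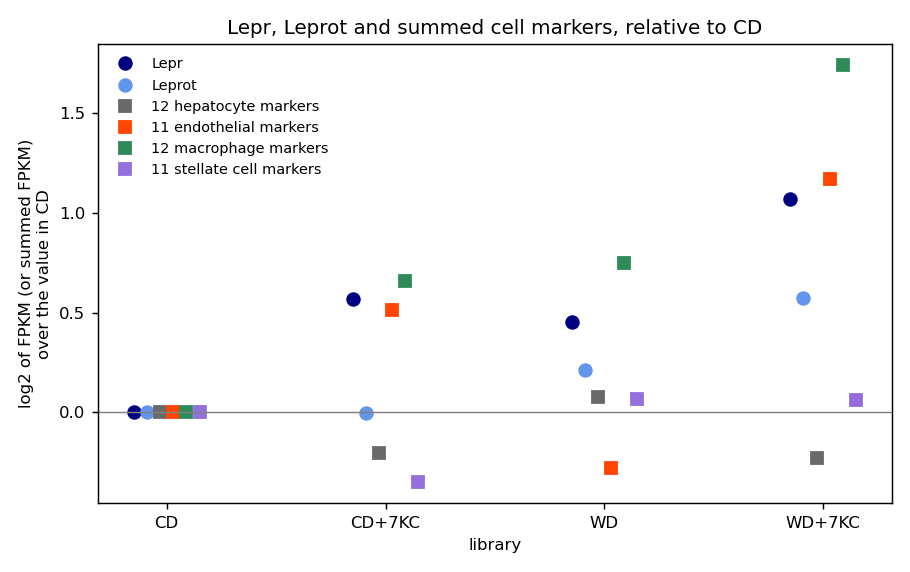
Log2 of the level over its level in CD (vertical axis) in the 4 libraries (horizontal axis). Circles show the FPKM of Lepr and Leprot and squares the summed FPKM of 4 marker lists. In WD+7KC the endothelial and macrophage sums, at 208.0 and 523.6 FPKM, lie above CD together with Lepr at 1.60 FPKM, and the hepatocyte sum lies below CD.

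Since all mice were leptin-deficient, the levels that follow do not measure a response to leptin. Among 18 genes of leptin signalling, 17 were measured in WD+7KC relative to WD. Of these 13 were higher and 4 lower, with 1 above 1 (Socs1, at most 0.405 FPKM) and 1 below -1 (Igfbp2), and the median was 0.22. With equal sums 15 were higher and 2 lower, and the median was 0.44, beside 0.21 over all genes. In CD+7KC relative to CD 4 were higher and 13 lower, and the median was -0.19. Only Socs2 was past the threshold there, below -1, at 2.38 FPKM in CD and 1.03 in CD+7KC. Socs3, a feedback inhibitor of leptin signalling, was at 2.12 (CD), 1.83 (CD+7KC), 1.76 (WD) and 2.77 (WD+7KC) FPKM. Cish, another feedback inhibitor of the same family, was at 2.18, 1.29, 3.07 and 5.37 FPKM and had the highest log2 difference between WD+7KC and WD of the list's genes from 1 FPKM, 0.78. Igfbp2, a binding protein of insulin-like growth factors that leptin induces in liver, was at 35.2, 28.7, 22.7 and 10.2 FPKM. It was lowest in WD+7KC, with a log2 difference from WD of -1.15 (-0.93 with equal sums).

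Fgf21 differed between the diets and not detectably with 7KC. It was at 9.68 (CD), 10.02 (CD+7KC), 18.4 (WD) and 18.3 (WD+7KC) FPKM, from 79.4 to 166 estimated reads. Both WD libraries were above both chow libraries. WD over CD was 1.90 (1.43 to 2.56), and WD+7KC over CD+7KC was 1.83 (1.40 to 2.42). The latter was a log2 difference of 0.86 with the deposited scaling and 1.07 with equal sums. Adding 7KC gave ratios of 0.995 (0.785 to 1.26) for WD+7KC over WD and 1.03 (0.750 to 1.43) for CD+7KC over CD, and smaller changes than these bounds were not detectable at this depth. With equal sums WD+7KC over WD was 1.16 (0.912 to 1.46), on the other side of 1 but still including it. The gene spans chr7:45613890-45615490 and has 3 exons and 1 RefSeq mRNA.

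The co-receptor gene of FGF21 and the FGF receptor genes Fgfr1 to Fgfr4 differed less between the diets. Klb, the beta-Klotho co-receptor gene, was at 9.84 (CD), 6.93 (CD+7KC), 6.68 (WD) and 5.45 (WD+7KC) FPKM. Its log2 difference was -0.50 in CD+7KC relative to CD, where Fgf21 did not differ detectably, and -0.55 in WD relative to CD. Fgfr4, the main FGF receptor gene of hepatocytes, was at 7.00, 7.74, 8.96 and 8.73 FPKM. Fgfr1 was at 0.885, 0.675, 0.648 and 0.954 FPKM. Of the 14 genes of the FGF21 and FGF receptor list, Fgf15 was listed at 0 in every library, and 6 were higher and 6 lower in WD+7KC relative to WD with none past the threshold (9 higher and 3 lower with equal sums, again with none past it). Fgfr2 had the highest log2 difference there (0.34) and Ppara, the nuclear receptor that drives Fgf21 in fasting, the lowest (-0.31, or -0.09 with equal sums). In WD relative to CD 4 were higher and 8 lower, and Mlxipl, the carbohydrate response factor ChREBP, was the only gene past the threshold. It was at 51.0 (CD), 63.2 (CD+7KC), 22.4 (WD) and 22.9 (WD+7KC) FPKM.

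Gdf15 had the widest range of the 9 genes. It was at 33.9 (CD), 43.3 (CD+7KC), 15.3 (WD) and 29.7 (WD+7KC) FPKM, from 439, 563, 170 and 426 estimated reads. WD was lowest and both 7KC libraries were above their own diet without 7KC. The ratio of the highest to the lowest library was 2.83 (2.39 to 3.39). In this order only the neighbours WD+7KC and CD did not differ beyond counting error, with a ratio of 1.14 (0.996 to 1.31).
WD over CD was 0.450 (0.374 to 0.538), a log2 difference of -1.15, and 7.27% of all genes had a larger difference in that comparison. WD+7KC over WD was 1.95 (1.63 to 2.34), a log2 difference of 0.96, and it was 1.17 with equal sums. CD+7KC over CD was smaller, at 1.28 (1.13 to 1.45). The 7KC change under WD exceeded that under CD by 0.61 on the log2 scale (0.30 to 0.92, counting error only), and by 0.79 with equal sums. WD+7KC over CD+7KC was 0.687 (0.603 to 0.779). Gdf15 spans chr8:70629393-70632470 and has 2 RefSeq mRNAs.

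Gdf15 and Fgf21, which are often named together as stress hormones of the liver, stood in opposite order between the diets. Gdf15 per Fgf21 was 3.50 (CD), 4.32 (CD+7KC), 0.831 (WD) and 1.63 (WD+7KC). The receptor gene Gfral was listed at 0 in all 4 libraries. Of the 20 genes of the GDF15 receptor and integrated stress response list, 11 of 19 measured were higher and 8 lower in WD+7KC relative to WD, none past the threshold, with a median of 0.07. With equal sums 15 were higher and 4 lower, the median was 0.28, beside 0.21 over all genes, and Atf3 and Mthfd2 were above 1. In CD+7KC relative to CD 4 were higher and 15 lower, and the 3 past the threshold, Asns, Chac1 and Psat1, were all lower, while Gdf15 was higher. Asns and Psat1 were below 1 FPKM in both libraries, and Chac1 was at 8.91 FPKM in CD and 2.05 in CD+7KC. In WD relative to CD Psat1 was above 1 and Chac1 below -1, and the median was 0.17. The list's largest median, 0.40, came from WD+7KC relative to CD+7KC (0.54 with equal sums, beside 0.20 over all genes). There 16 of 19 genes stood above their CD+7KC level and 3 below it, while Gdf15 was lower. Asns, Psat1, Nupr1 and Mthfd2 were above 1 in log2 difference. All of them except Nupr1 were below 1 FPKM in CD+7KC.
Atf4, the central transcription factor of the response, was at 69.7 (CD), 58.8 (CD+7KC), 60.2 (WD) and 54.7 (WD+7KC) FPKM. Ddit3, which encodes CHOP, was at 10.1, 11.4, 13.7 and 17.4 FPKM. Atf3 was at 4.97, 6.28, 4.35 and 8.52 FPKM, and like Gdf15 it was lowest in WD and higher with 7KC in both diets. Its log2 difference in WD+7KC relative to WD was 0.95 as deposited and 1.17 with equal sums, the highest of its list from 1 FPKM. Trib3, a CHOP target, was at 7.08, 6.42, 8.69 and 5.29 FPKM and had the lowest, -0.71.
Over the 4 libraries, the genes whose mean-centred log2 profile lay nearest to that of Gdf15 among 6689 genes averaging 5 FPKM or more were Mob1a, Tsacc and Mogat1, at root mean square distances of 0.12, 0.15 and 0.17. Mogat1, an acylglycerol acyltransferase gene, was at 21.2 (CD), 26.3 (CD+7KC), 11.8 (WD) and 16.6 (WD+7KC) FPKM. Likeness over 4 points describes these libraries only.

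**Figure D4:**
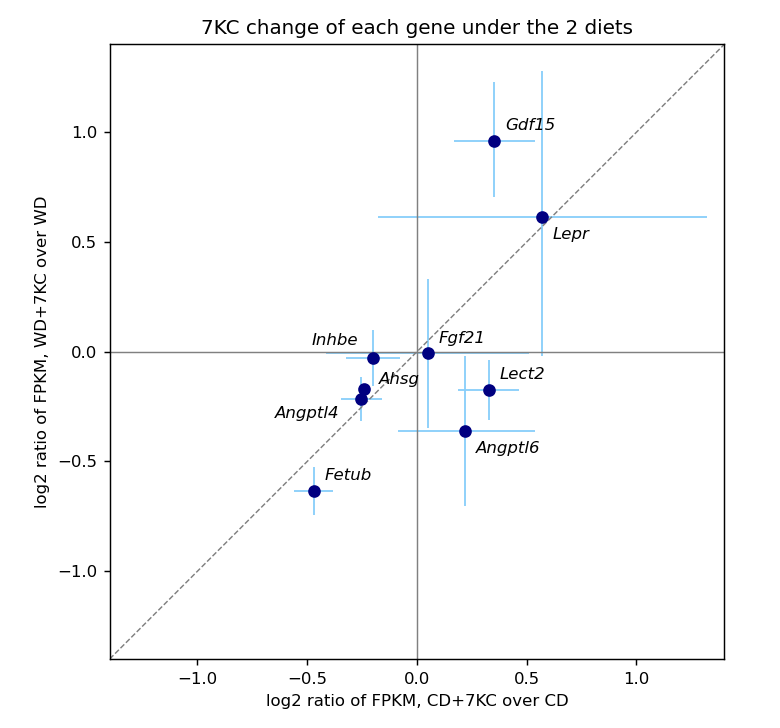
Log2 ratio of FPKM with 7KC under chow (CD+7KC over CD, horizontal axis) and under the high fat diet (WD+7KC over WD, vertical axis). Points are the 9 genes, lines the 95% intervals of counting error, and the dashed line marks equal changes. Gdf15 lies above the dashed line with a difference of 0.61, Fetub lies low on both axes, and Lect2 and Angptl6 lie below 0 on the vertical and above 0 on the horizontal axis.

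Ahsg, the fetuin-A gene, was at 3354 (CD), 2839 (CD+7KC), 3649 (WD) and 3239 (WD+7KC) FPKM. Each 7KC library was below its own diet without 7KC. WD+7KC over WD was 0.888 (0.876 to 0.899) and CD+7KC over CD was 0.846 (0.835 to 0.858). The former was a log2 difference of -0.17, and it was 0.04 with equal sums, so that its sign depended on the scaling. CD+7KC relative to CD was -0.24 and kept its sign at -0.20. With at least 40155 estimated reads in each library the counting intervals are narrow and say nothing of the variation between mice. Per 1000 FPKM of summed hepatocyte markers, Ahsg was 53.9, 52.6, 55.5 and 61.0 in CD, CD+7KC, WD and WD+7KC.

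Fetub, the fetuin-B gene, was lowest in the library with both high fat and 7KC. It was at 244 (CD), 176 (CD+7KC), 180 (WD) and 116 (WD+7KC) FPKM. CD was highest, and CD+7KC and WD, between the extremes, did not differ beyond counting error (ratio of WD to CD+7KC 1.02, 0.953 to 1.10). The highest to lowest ratio was 2.11 (1.97 to 2.26).
WD+7KC over WD was 0.644 (0.597 to 0.694) and CD+7KC over CD was 0.722 (0.678 to 0.768). WD over CD was 0.738 (0.691 to 0.787) and WD+7KC over CD+7KC was 0.658 (0.611 to 0.708). All 4 log2 differences were negative in both scalings, between -0.64 and -0.44 as deposited and between -0.43 and -0.40 with equal sums. The 7KC changes under the diets differed by -0.17 as deposited and by 0.01 with equal sums. Per 1000 FPKM of hepatocyte markers Fetub was 3.92, 3.27, 2.74 and 2.18 in CD, CD+7KC, WD and WD+7KC, which kept the order of CD and WD+7KC as extremes. The genes of nearest profile were 1810008I18Rik, Pim3 and Cebpb, at distances of 0.051, 0.061 and 0.065. Cebpb, a liver transcription factor gene, was at 110 (CD), 75.5 (CD+7KC), 79.2 (WD) and 56.1 (WD+7KC) FPKM.

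The fetuin genes are neighbours and differed in their pattern. Ahsg, at chr16:22892015-22899451, ends 18930 bases before Fetub, at chr16:22918382-22939768. Ahsg per Fetub was 13.7 (CD), 16.1 (CD+7KC), 20.3 (WD) and 27.9 (WD+7KC). Hrg, Kng2 and Kng1 follow on the same stretch, with gaps of 11303, 24192 and 29118 bases, and encode further cystatin-family plasma proteins. Hrg, histidine-rich glycoprotein, was at 470, 408, 330 and 263 FPKM, and Hrg per Fetub stayed between 1.83 and 2.31. Kng1, a kininogen gene, was at 755, 675, 763 and 626 FPKM. Kng2 was at 119, 111, 174 and 158 FPKM and was higher in both WD libraries than in both chow libraries, against the direction of Fetub and Hrg. Kng1 and Kng2 are close relatives, and how the counting divided reads between them is not stated. Insr, the insulin receptor gene, was at 13.3, 11.4, 10.6 and 10.4 FPKM.

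**Figure D5:**
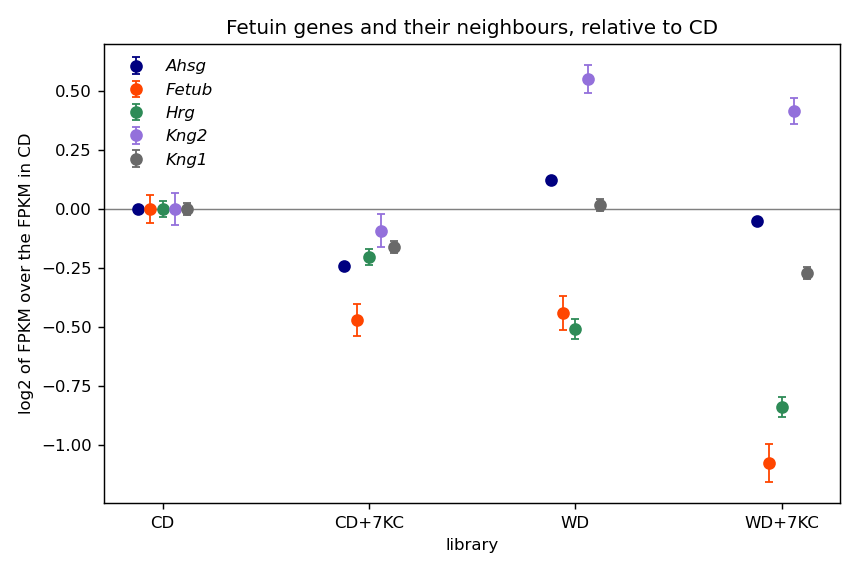
Log2 of FPKM over the FPKM in CD (vertical axis) in the 4 libraries (horizontal axis) for 5 neighbouring genes of chromosome 16. Error bars are 95% intervals of each library's counting error and leave out that of CD as the divisor. Fetub and Hrg were lowest in WD+7KC, at 116 and 263 FPKM, Kng2 was highest in WD at 174 FPKM, and in WD+7KC Ahsg and Kng1 lay closest to their level in CD.

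Inhbe varied least of the 9 genes as deposited, while Angptl4 varied least with equal sums (highest over lowest 1.16, beside 1.22 for Inhbe). It was at 51.1 (CD), 44.6 (CD+7KC), 48.0 (WD) and 47.1 (WD+7KC) FPKM, from 913 to 1151 estimated reads. As deposited no neighbours in this order differed beyond counting error, and the highest to lowest ratio was 1.15 (1.05 to 1.25). The ratio of WD+7KC to WD was 0.981 (0.898 to 1.07), and the log2 difference was -0.03 as deposited and 0.19 with equal sums. With equal sums the ratio was 1.14 (1.04 to 1.24), and WD+7KC over CD+7KC was 1.22 (1.12 to 1.33), so that both left out 1. Inhbe and Fgf21, whose promoters hold the same 8-letter core, did not share the difference between the diets: WD over CD was 0.938 (0.859 to 1.03) for Inhbe and 1.90 (1.43 to 2.56) for Fgf21. Inhbe lies at chr10:127349402-127351848.

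Inhbc, the related beta C subunit gene, starts 4473 bases after the end of Inhbe. It was at 29.1 (CD), 23.9 (CD+7KC), 33.4 (WD) and 29.4 (WD+7KC) FPKM. Inhbe per Inhbc was 1.76, 1.87, 1.44 and 1.60, higher in both chow libraries than in both WD libraries. Of the 19 genes of the inhibin and activin list, 10 of 18 measured were higher and 8 lower in WD+7KC relative to WD, and the median was 0.01. With equal sums 13 were higher and 5 lower, and the median was 0.22, beside 0.21 over all genes. The only gene past the threshold there was Inhbb, at 1.68, 1.27, 0.443 and 1.74 FPKM, which was low in WD and between 1.27 and 1.74 FPKM in the other libraries. Acvr1b, an activin type I receptor gene, had the lowest difference among genes from 1 FPKM, -0.30. Inhba was at 1.30, 0.342, 0.718 and 0.434 FPKM. Fst, the activin-binding follistatin gene, was at 0.947, 0.384, 2.35 and 2.37 FPKM and so was higher in both WD libraries. Acvr1c, the gene of the activin receptor ALK7, was listed at 0 in all 4 libraries.

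Angptl4 was highest in CD and lowest in WD+7KC. It was at 111 (CD), 92.9 (CD+7KC), 96.1 (WD) and 82.7 (WD+7KC) FPKM. The highest to lowest ratio was 1.34 (1.26 to 1.43), and the middle libraries did not differ beyond counting error. With 7KC, WD+7KC over WD was 0.860 (0.802 to 0.922) and CD+7KC over CD was 0.838 (0.786 to 0.894). The log2 differences were -0.22 and -0.25, and with equal sums they were -0.00 and -0.21, so that the one under WD was lost with that scaling. WD+7KC relative to CD+7KC changed from -0.17 to 0.04 in the same way. Of 15 genes that share PPAR control with Angptl4, 4 were higher and 11 lower in WD+7KC relative to WD, none past the threshold, with a median of -0.22 (7 higher and 8 lower with equal sums, with a median of -0.01). Pdk4, a PPAR-driven kinase of pyruvate dehydrogenase, was at 12.6, 9.38, 7.08 and 10.5 FPKM and had the highest difference, 0.56. Fabp1, the liver fatty acid binding protein gene, had the lowest, -0.43, at 19129, 15788, 18683 and 13842 FPKM.

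The genes of a list of the angiopoietin-like family and lipase control, which also held the receptor gene Tek, varied in other ways. Angptl8, a feeding-induced regulator of lipoprotein lipase (under the older symbol Gm6484 in the tables), was at 30.8 (CD), 42.6 (CD+7KC), 34.3 (WD) and 46.6 (WD+7KC) FPKM, higher in both 7KC libraries. Lpl, the lipase itself, was at 22.3, 14.7, 30.6 and 34.6 FPKM. Fat tissue expresses Lpl and Angptl4 as well, and of the adipocyte markers Lep and Plin1 were listed at 0 in all libraries and Adipoq was at most 0.0885 FPKM, while Cfd was at 220, 63.2, 1.47 and 0.115 FPKM. Fabp4, which macrophages also express, was at 83.5, 66.5, 104 and 143 FPKM, and Retn was at 1.21 (CD) and 0.241 (CD+7KC) FPKM and listed at 0 in WD and WD+7KC. The part of these markers in the Angptl4 and Lpl values was not tested. Lipc, hepatic lipase, was at 89.2, 86.6, 49.7 and 37.8 FPKM and had the lowest difference of the list from 1 FPKM in WD+7KC relative to WD, -0.39. Tek, an angiopoietin receptor gene that is also one of the endothelial markers, had the highest, 1.46. Of the 10 genes of that list 6 were higher and 4 lower in the comparison, with 3 above 1 (Tek, Gpihbp1 and Angptl7) and 1 below -1 (Angptl1), and the median was 0.12. Angptl7, at 0.0568 FPKM in WD and 0.221 in WD+7KC, and Angptl1, at 0.106 and 0, were near the floor.

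Angptl6 was at 10.7 (CD), 12.5 (CD+7KC), 11.2 (WD) and 8.70 (WD+7KC) FPKM, from 146 to 190 estimated reads. No neighbours in the order of levels differed beyond counting error, and the highest to lowest ratio was 1.43 (1.15 to 1.79). For 7KC, WD+7KC over WD was 0.778 (0.614 to 0.985) and CD+7KC over CD was 1.16 (0.942 to 1.45). With equal sums the first was 0.903 (0.714 to 1.14), which included 1. The 7KC changes under the diets differed by -0.58 on the log2 scale (-1.03 to -0.13), or by -0.41 with equal sums. The exons of Angptl6 overlap those of A230050P20Rik on the other strand by 265 bases, and that gene was at 20.1 and 21.1 FPKM in the chow libraries and at 13 and 16.05 FPKM in WD and WD+7KC. Libraries were stranded, but whether strand was used in counting is not stated, so that reads in the overlap cannot be assigned.

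Lect2 was at 107 (CD), 134 (CD+7KC), 135 (WD) and 120 (WD+7KC) FPKM. CD was lowest, and CD+7KC and WD did not differ beyond counting error. CD+7KC over CD was 1.25 (1.14 to 1.38) and WD over CD was 1.26 (1.14 to 1.39). WD+7KC over WD was 0.886 (0.805 to 0.974), and so was below 1 where the 7KC ratio under chow was above 1. With equal sums that ratio was 1.03 (0.935 to 1.13), so that the signs were not opposite with that scaling. WD+7KC relative to CD+7KC changed likewise, from -0.17 to 0.04 on the log2 scale.
Met, a receptor bound by LECT2, was at 15.0 (CD), 11.0 (CD+7KC), 9.84 (WD) and 9.56 (WD+7KC) FPKM. Tie1, another LECT2 receptor and one of the endothelial markers, was at 3.53, 4.28, 2.15 and 7.05 FPKM. It was highest in WD+7KC, with a log2 difference of 1.67 from WD, beside -0.04 for Met (0.17 with equal sums).

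Among 21 other hepatokine genes, 9 were higher and 12 lower in WD+7KC relative to WD, 1 above 1 (Gpnmb) and 2 below -1 (Igfbp2 and Enho), with a median of -0.05. With equal sums 14 were higher and 7 lower, the median was 0.17, beside 0.21 over all genes, and Enho alone was below -1. Enho was low, at 0.710 FPKM in WD and 0.158 in WD+7KC. In CD+7KC relative to CD 11 were higher and 10 lower, 2 of them below -1 (Igfbp1, and Fst from below 1 FPKM), and the median was 0.03. Gpnmb, which macrophages also express, was at 2.25 (CD), 3.77 (CD+7KC), 11.2 (WD) and 24.4 (WD+7KC) FPKM, the order of the summed macrophage markers. Their part in it was not tested. Igfbp1, an insulin-suppressed binding protein of the liver, was at 90.9, 41.6, 46.7 and 47.6 FPKM, so that CD stood above the other 3 libraries. Selenop, selenoprotein P (Sepp1 in the tables), was at 5266, 5204, 5700 and 4849 FPKM.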

How the data were processed

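Liver RNA of male ob/ob mice was sequenced in 4 groups with 1 library each. The authors prepared stranded mRNA libraries, read 75 bases single-end, mapped reads to mm10 with TopHat2 2.0.13, Bowtie2 2.2.3 and SAMtools 0.1.19, and computed the deposited FPKM values with Cufflinks 2.2.1 (versions also per the submitters' processing notes). The gene annotation, the Cufflinks options, the use of strand and the number of mice behind a library are not given in the sources used here.

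From the FPKM values, log2 ratios were taken after adding a pseudocount of 0.1, over genes above 0 in at least 1 of 2 libraries, and calls were made above 1 or below -1. With 1 library a group no test was run. Whole reads leave steps among low FPKM values, and for genes of 1 RefSeq mRNA (length minus 200 bases) these gave depths of 11000000 (CD), 11000000 (CD+7KC), 9450000 (WD) and 12200000 (WD+7KC) fragments, at which 79.4% to 81.7% of low values fell within 0.1 of whole reads. Reads of a gene were estimated from its shortest RefSeq mRNA in GENCODE vM21, and the intervals cover counting error only. The code was tested on simulated data. Promoter sequences were taken from RefSeq.

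The members, the companion and marker lists and the tests were chosen with earlier results of these data known. Named are all members, 21 companion genes chosen by role, the gene of highest and of lowest log2 difference in each companion list in WD+7KC relative to WD from 1 FPKM, and the 3 genes of nearest profile for members with a log2 range above 1. A further gene of the lists is not reported here, and the counts leave it out. Genes past the threshold, Kng2, Mlxipl, Fgfr1, A230050P20Rik and the ratios to marker sums were added after the values were seen. Alternatives were pseudocounts of 1 and 0.01, a filter of 1 FPKM, median-ratio scaling, equal sums with or without the 20 highest genes, the upper quartile, a threshold of 1.5-fold and the full mRNA length. Python 3.11.15, numpy 2.4.6, pandas 2.3.3, scipy 1.17.1 and matplotlib 3.10.9 were used.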

Additional observations from a re-analysis of the deposited data

Results flagged for a closer look

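Lect2 differed between the diets in the direction of its 7KC difference. The log2 difference was 0.33 in CD+7KC relative to CD and -0.18 in WD+7KC relative to WD, each with a counting interval that left out 0, and the second minus the first was -0.50 (-0.70 to -0.31, counting error only). Seen from the other side, WD was above CD without 7KC (0.33) and below it with 7KC (-0.17), which gives the same -0.50. With 1 library a group the difference was not tested over mice. With equal sums it was -0.33, and the log2 ratio was then 0.04 both in WD+7KC relative to WD and in WD+7KC relative to CD+7KC, so that neither pair of directions was still opposite.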

How the results depend on the processing

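No paired analysis was possible because each group has 1 library, and no library was left out for the same reason. The count of member genes past the threshold in WD+7KC relative to WD was 0 as reported, 1 with equal sums, with the upper quartile and without the 20 highest genes, and 2 at a 1.5-fold threshold. In WD relative to CD it was 1 as reported and 2 at 1.5-fold. In WD+7KC relative to CD+7KC it was 0 as reported, 1 with equal sums and without the 20 highest genes, and 2 at 1.5-fold. In CD+7KC relative to CD it stayed 0 under every alternative. Of the 36 log2 differences of members, 6 changed sign with equal sums, 5 without the 20 highest genes, 2 with the upper quartile and 0 under the other alternatives, and none of those that changed sign was beyond 0.3 in size. These scalings move WD+7KC, the library of lowest FPKM sum.

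Counts of all genes past the threshold depended on low values. In WD+7KC relative to WD, CD+7KC relative to CD, WD relative to CD and WD+7KC relative to CD+7KC they were 1418, 1059, 1511 and 2007 as reported, of 15753, 15684, 15597 and 15898 genes. They were 189, 113, 287 and 541 with a pseudocount of 1, 2830, 2380, 2929 and 3582 with 0.01, 521, 287, 602 and 1043 from 1 FPKM, and 3310, 2742, 3778 and 4597 at 1.5-fold. With equal sums they were 1717, 1042, 1470 and 2334. With the upper quartile they were 1460, 1070, 1500 and 2022, and without the 20 highest genes 1653, 1037, 1488 and 2307. With the full mRNA length 36 of 36 counting intervals of members kept their side of 1. Depth limits Lepr most, with 26.9 to 62.5 estimated reads.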
